A study of Euphorbia esula with 15 samples.

Results

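Underground crown buds of leafy spurge (Euphorbia esula) sampled 24 h after all aerial shoots were cut off were compared with crown buds of intact plants (0 h), and the genes and functions that made up the shift between them are described here. The unit is the component, a group of assembled contigs that the assembler treats as a gene. A component entered the comparison when it had more than 10 normalized counts in every 24 h library or in every 0 h library, and 18086 of the 223732 components in the table did. There were 4 libraries of 24 h buds and 3 libraries of 0 h buds, within a series of 15 libraries that also covers 6 h and 72 h. All plants belonged to biotype 1984-ND001, were grown in a greenhouse and held for 1 week in a growth chamber at 27 °C under a 16 h photoperiod, and shoot removal is the sole treatment the sources describe. Plants of the 24 h group had lost every stem at soil level, and those of the 0 h group had not, so their buds were paradormant. Each library came from buds pooled over about 30 plants, so a library shows an average over many buds and plants. The sources differ on plant age (about 3 or about 4 months) and on the hour of harvest (noon or midnight).

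Crown buds sit on the stem base below ground and are kept from growing by signals from the shoot above, a state called paradormancy that ends when the shoot is removed. Plant cells short of sugar are known to make asparagine synthetase, to break down protein and branched-chain amino acids and to slow ribosome production and cell division, whereas starch synthesis follows sugar supply. Plant tissue with little oxygen is known to make sucrose synthase, alcohol dehydrogenase and pyruvate decarboxylase, and dividing cells make the replication helicase, DNA polymerases and histones in S phase. Gene symbols and roles given below are those of the Arabidopsis gene whose code (AGI) the table attaches to a component, or of its best protein hit, and they are background.

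Library totals were 3750902 to 8766393 expected counts at 24 h and 2569254 to 6649334 at 0 h, and the components compared carried 98.2 to 98.4% and 98.5% of them. Counts of components with a best hit outside plants made up 0.741 to 0.775% of a library at 24 h and 0.542 to 0.559% at 0 h. Shoot meristem genes were present in both groups: KNAT1, which keeps meristem cells undifferentiated, had 481 to 584 normalized counts at 24 h and 472 to 619 at 0 h. ANT, an organ initiation factor, had 570.4 to 758 at 24 h and 532 to 577 at 0 h, summed over the components with its code. Some other markers differed between the groups. Of tested shoot meristem components 4 of 12 were higher and 0 lower, and of leaf primordia components 0 and 3 of 7. These are 33.3% and 42.9% called, against 50.1% of all components compared, so neither list moved more often than components in general. The receptor CLV1 had 125 to 183 at 24 h and 82.9 to 93.6 at 0 h, with 1 of its 2 tested components called (comp134523_c0, log2 fold change 0.88 ± 0.17, adjusted p = 1.54e-04), and the meristem factor STM had 147 to 171 and 179 to 184, not called (log2 fold change -0.24 ± 0.10, adjusted p = 0.0534) though it was without 24 h replicate 4 (-0.28). The leaf polarity factors YAB3 (357 to 665 at 24 h and 681 to 872 at 0 h) and KAN1 (151 to 177 and 207 to 240.3) were lower without overlap of their sums, in both tested YAB3 components (-0.87 and -0.34) and 1 of 2 for KAN1 (-0.65). The call of YAB3 component comp120758_c0 was lost without 0 h replicate 1 or 2 or 24 h replicate 1 or 3 (-0.33 to -0.20). The part of these cell types in the results was not tested. CLV3, WUS and CUC1 had no component. Of the root markers, PLT1, RHD6 and CASP1 were at 0 and WOX5 reached at most 0.64, while SHR, SCR and GL2 were present. The flower genes LFY, AG, PI and SEP3 had at most 1.70 counts and AP1 and AP3 at most 15.2 counts in any library.

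The shift at 24 h was broad and mostly modest in size. edgeR's quasi-likelihood test with Benjamini-Hochberg adjustment called 9060 components at an adjusted p under 0.05, which is 50.1% of those compared. Of these, 4275 (23.6% of all components) were higher and 4785 (26.5%) lower at 24 h than at 0 h. The median log2 fold change of all components was -0.01, that of the components called higher 0.68 and that of the components called lower -0.61. A change of at least 2-fold was reached by 1018 components called higher (5.63%) and 944 called lower (5.22%), and one of at least 4-fold by 90 and 111. In 4198 components (23.2%) the lowest 24 h library lay above the highest 0 h library and in 4755 (26.3%) the highest 24 h library lay below the lowest 0 h library, 8953 (49.5%) in all. Of the 18086, 16300 passed the filter in both groups, 1070 by 24 h alone and 716 by 0 h alone, and the last 2 sets passed through the group where they were high. Among the 16300, 22.5% were higher and 27.0% lower. With 50.1% called, a list with about that share moved no more often than components in general, and the counts of lists below are read against 23.6% and 26.5%. In pooled buds, fewer cells of a type and less RNA per cell cannot be told apart.

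**Figure D1:**
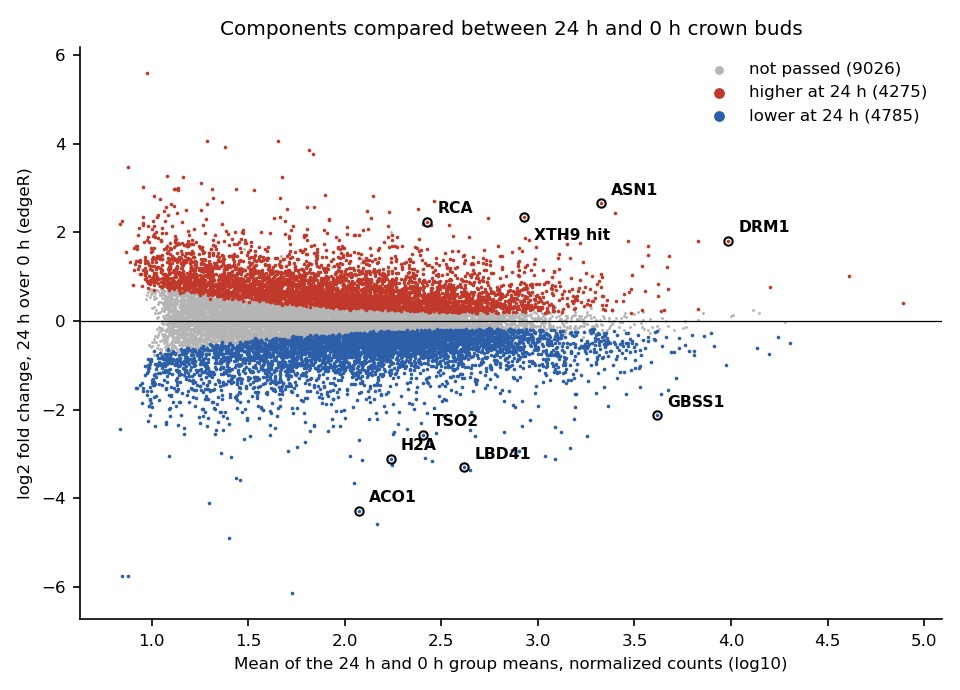
Each of the 18086 components compared is a point, with the log10 of its mean normalized count over both group means on the x axis and edgeR's log2 fold change of 24 h over 0 h on the y axis. Red points (4275) were called higher and blue points (4785) lower at 24 h, gray points were not called, and labelled circles are components described in the text, such as ASN1 among the increases and LBD41 and ACO1 among the decreases.

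The 10 largest annotated increases with at least 50 normalized counts at 24 h included a pectinesterase, a serine-pyruvate aminotransferase and an asparagine synthetase. The asparagine synthetase ASN1 (comp115335_c0, AT3G47340), which stores nitrogen as asparagine when carbon is scarce, had 3568, 3626, 4018 and 3422 normalized counts at 24 h, against 560.2, 514 and 645 at 0 h. Every 24 h library lay far above every 0 h library (log2 fold change 2.67 ± 0.18, adjusted p = 2.82e-10). The aminotransferase (comp103606_c0, AT2G13360), a peroxisomal enzyme of photorespiration in Arabidopsis leaves, had 228, 331, 291 and 133 at 24 h, against 38.1, 31.5 and 35.4 at 0 h (log2 fold change 2.81 ± 0.29, adjusted p = 1.12e-07). The component with a pectinesterase-2 hit (comp121797_c0, AT3G59010), an enzyme that removes methyl groups from cell wall pectin, had 51.1, 62.8, 76.6 and 51.3 at 24 h, against 9.72, 4.97 and 7.20 at 0 h (log2 fold change 2.97 ± 0.25, adjusted p = 7.89e-09). The groups did not overlap in the aminotransferase either. The pectinesterase component passed the filter through 24 h alone, so its groups had to differ. A component with an RNA binding protein hit (comp128559_c2, AT4G32440) had 68.1, 91.2, 105 and 61.4 at 24 h, against 11.3, 4.97 and 15.5 at 0 h (log2 fold change 2.77 ± 0.28, adjusted p = 6.28e-08). Annotation was in conflict for comp132057_c0, whose code is AT3G22640 and whose best hit is the nucleolar protein nop56. It had 519, 489, 529 and 462 at 24 h, against 62.4, 94.5 and 79.9 at 0 h (log2 fold change 2.70 ± 0.17, adjusted p = 1.54e-10). The remaining increases among the 10 carry codes (AT4G30420, AT5G21910, AT1G47960 and AT5G56550) or a hit without a descriptive name, with log2 fold changes of 2.85 to 4.07. Those with these codes and the RNA binding component also passed the filter through 24 h alone, the group where they were high.

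The decreases reached further, and those with a name came from ethylene synthesis, low-oxygen response and chromatin. ACO1 (comp118906_c0, AT2G19590, best hit an ACC oxidase), the enzyme of the last step of ethylene synthesis, had 12.5, 13.1, 7.72 and 12.3 normalized counts at 24 h, against 224, 214 and 236 at 0 h. Its 24 h libraries kept only a small part of the 0 h level (log2 fold change -4.28 ± 0.41, adjusted p = 3.67e-08). LBD41 (comp123383_c1, AT3G02550), a LOB-domain factor that is among the core low-oxygen genes of Arabidopsis, had 103, 66.3, 59.3 and 75.9 at 24 h, against 652, 884 and 728 at 0 h (log2 fold change -3.30 ± 0.21, adjusted p = 2.12e-10). A histone H2AX component (comp85027_c0, AT1G08880), the variant that is phosphorylated at DNA breaks, had 35.2, 35.7, 22.5 and 34.6 at 24 h, against 299.7, 438 and 213 at 0 h (log2 fold change -3.25 ± 0.21, adjusted p = 1.87e-10). All 4 of its 24 h libraries lay far below the 0 h libraries. The other 7 of the 10 largest decreases have codes (AT4G24110, AT1G43800, AT5G65640, AT4G10270, AT1G62500, AT3G10040 and AT1G54690) with hits that name no function. The roles of these codes in Arabidopsis are not given here, so they may belong to the same functions or to others. Among them comp123272_c2 had the largest fall, with 21.6, 9.94, 6.44 and 5.58 at 24 h, against 201, 348 and 303 at 0 h (log2 fold change -4.58 ± 0.33, adjusted p = 6.82e-10). The most abundant at 0 h was comp106324_c0, with 79.8 ± 24.1 at 24 h (SD, n = 4) and 811 ± 58.7 at 0 h (SD, n = 3). ACO1, comp123272_c2 and the components with codes AT1G43800 and AT5G65640 passed the filter through 0 h alone, the group where they were high.

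**Figure D2:**
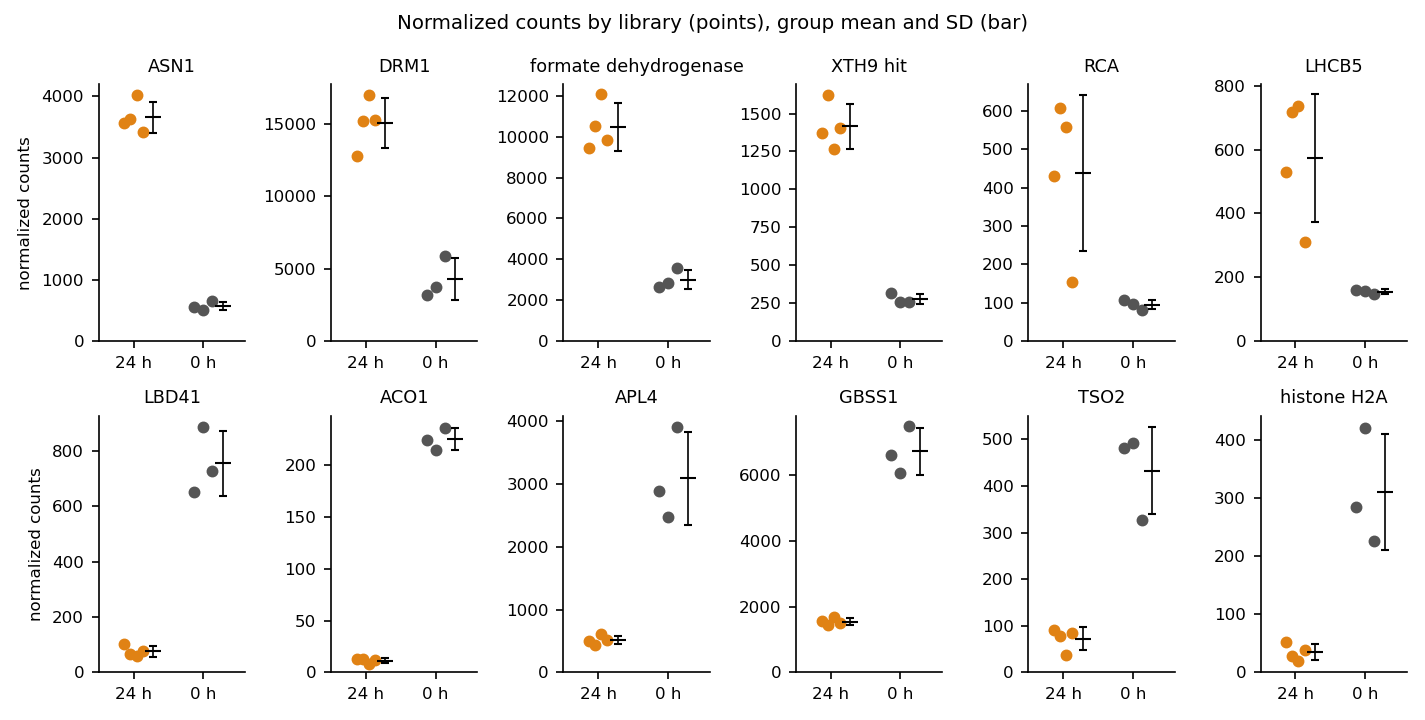
Normalized counts of 12 components, with 24 h libraries (orange, 4 points) left of 0 h libraries (gray, 3 points) and the group mean and SD as a bar, each panel with its own axis from 0. ASN1, DRM1, formate dehydrogenase, XTH9, RCA and LHCB5 in the upper row were higher at 24 h and LBD41, ACO1, APL4, GBSS1, TSO2 and histone H2A in the lower row were lower, without overlap; replicate 4 of 24 h lies nearest the 0 h libraries for RCA and LHCB5.

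By number of counts, other genes led the rise. The largest rise was that of comp132344_c1 (AT4G21960, hit without a descriptive name), which had 52992, 53114, 55778 and 56356 normalized counts at 24 h, against 25950.3, 26819 and 28442 at 0 h (log2 fold change 1.01 ± 0.10, adjusted p = 4.07e-08). The next, comp131617_c0, has no AGI code and a hypothetical protein as its hit. It had 80465, 86328, 87673 and 100222 at 24 h, against 63605, 59780.4 and 76448 at 0 h (log2 fold change 0.41 ± 0.17, adjusted p = 0.0441). Its call was lost when 0 h replicate 1 or 2 or 24 h replicate 2, 3 or 4 was left out (log2 fold change 0.34 to 0.43). The auxin-repressed, dormancy-associated DRM1 (comp136283_c0, AT1G28330) had 12798, 15209, 17035 and 15272 at 24 h, against 3149, 3762 and 5908 at 0 h (log2 fold change 1.82 ± 0.17, adjusted p = 3.35e-08). Formate dehydrogenase (comp121206_c0, AT5G14780), a mitochondrial enzyme that oxidizes formate, had 9448, 10537, 12082 and 9852 at 24 h, against 2643, 2816 and 3549 at 0 h (log2 fold change 1.80 ± 0.12, adjusted p = 3.00e-10). For both, the lowest 24 h library was more than 2 times the highest 0 h library. Catalase (comp126585_c0, AT4G35090), which removes hydrogen peroxide in peroxisomes, averaged 20070.1 ± 1259 at 24 h and 11706 ± 182 at 0 h (log2 fold change 0.78 ± 0.09, adjusted p = 2.76e-07). Cysteine protease CP1 (comp120745_c1, AT5G43060) averaged 7044 ± 832 and 2535 ± 207 (log2 fold change 1.47 ± 0.11, adjusted p = 1.22e-09).

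The 6 largest falls in counts had varied annotations. An AMP-dependent ligase (comp136109_c0, AT3G16910) averaged 11764 ± 1507 normalized counts at 24 h and 19769 ± 907 at 0 h (SD, n = 4 and 3, log2 fold change -0.75 ± 0.11, adjusted p = 6.18e-06). S-adenosylmethionine decarboxylase (comp120485_c0, AT5G15950), which makes the aminopropyl donor for polyamines, averaged 6355 ± 643 and 12583 ± 305 (log2 fold change -0.99 ± 0.09, adjusted p = 1.57e-08). The code of comp136796_c0, AT5G60390, is that of other components with an elongation factor 1-alpha hit, although its own hit has no descriptive name. It averaged 16714 ± 1818 at 24 h and 23502 ± 866 at 0 h (log2 fold change -0.49 ± 0.10, adjusted p = 3.72e-04). A heat shock protein (comp134924_c0, AT5G56010) averaged 10778 ± 663 and 16533 ± 426 (log2 fold change -0.62 ± 0.09, adjusted p = 5.48e-06). The other two, GBSS1 of starch synthesis and MS1 of the methionine cycle, are described with their pathways.

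Genes of the low-oxygen response and of fermentation were lower together. Of 41 components in the table, 14 passed the filter on low values, 0 were higher, 12 lower and 2 did not pass the test. At least 2-fold lower were 12 of the 14, against 5.22% of all components, and the median log2 fold change of the list was -1.47 (all components, -0.01). Summed over all components of the list, the libraries had 6042, 5463, 5393 and 6000.3 at 24 h, against 14782, 16096 and 19697 at 0 h. The highest 24 h library lay well below the lowest 0 h library. The fermentation enzymes named by their code were lower in every component tested. Alcohol dehydrogenase ADH1, which regenerates NAD+ by reducing acetaldehyde, had log2 fold changes of -1.02, -1.15 and -1.95 in 3 components, pyruvate decarboxylase PDC1 of -1.04 and lactate dehydrogenase LDH1 of -1.12. The plant cysteine oxidase PCO1 (comp130437_c0, AT5G15120), an oxygen sensor that marks low-oxygen transcription factors for breakdown, had 39.1, 29.4, 30.9 and 25.7 at 24 h, against 186, 201 and 231 at 0 h (log2 fold change -2.70 ± 0.22, adjusted p = 3.29e-09). The related PCO2 (comp116517_c0) had a log2 fold change of -1.64, and a second LBD41 component (comp122621_c0) one of -2.59. Sucrose synthase SUS4 (comp128484_c0, AT3G43190), the most abundant member, which splits sucrose with little use of ATP, had 3216, 2758, 2682 and 3335 at 24 h, against 7489.5, 7157 and 7360.2 at 0 h (log2 fold change -1.29 ± 0.10, adjusted p = 2.16e-09). In SUS4 too every 24 h library was below every 0 h library. Of the HB1 hemoglobin components, comp89047_c0 was lower (log2 fold change -1.68) and comp104840_c0 was not called (-0.32), although it was without 0 h replicate 1 (-0.47) or 24 h replicate 3 (-0.42).

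Starch enzymes were lower on the synthesis side and, in part, on the breakdown side. For synthesis, of 49 components in the table, 16 passed the filter on low values, 3 were higher, 9 lower and 4 did not pass the test (median log2 fold change -0.41). The members that fell furthest were large subunits of ADP-glucose pyrophosphorylase, the enzyme that makes the sugar donor for starch. APL4 (comp132339_c1, AT2G21590) had 499.9, 443, 611 and 509 normalized counts at 24 h, against 2892, 2469 and 3905 at 0 h (log2 fold change -2.59 ± 0.19, adjusted p = 1.14e-09). The subunit APL2 (comp127803_c0, AT1G27680) had 82.8, 85.8, 101.02 and 83.7 at 24 h, against 485, 404 and 624 at 0 h (log2 fold change -2.53 ± 0.14, adjusted p = 1.98e-11). In both, the 0 h libraries lay several-fold above the 24 h libraries. Granule-bound starch synthase GBSS1 (comp112228_c0, AT1G32900), which makes amylose, had 1553, 1436, 1672 and 1494 at 24 h, against 6603, 6060.3 and 7485 at 0 h (log2 fold change -2.13 ± 0.11, adjusted p = 7.68e-12). The branching enzyme SBE2.1 (comp133490_c0, AT2G36390) had 1856, 1897, 2762 and 1867 at 24 h, against 5967, 5564 and 8225 at 0 h (log2 fold change -1.65 ± 0.16, adjusted p = 4.43e-08). The most abundant starch enzymes were thus lower in all 4 of the 24 h libraries. The small subunit ADG1 (comp121805_c1, log2 fold change -1.62) and plastid phosphoglucomutase PGM1 (comp130790_c0, -1.24) were lower as well. Synthase SS1 (0.46) and 1 of 2 components each of synthase SS4 and the debranching enzyme ISA2 (0.47) were higher, while the others were not called (SS4 0.19, ISA2 -0.04). A further APL2 component was not called either (-0.12). The higher SS4 component (comp135436_c1, AT4G18240) had 46.5, 58.7, 56.6 and 32.4 at 24 h, against 22.7, 31.5 and 30.8 at 0 h (log2 fold change 0.84 ± 0.22, adjusted p = 0.00368). Summed over the list, synthesis had 8205, 8012, 9916 and 8165 at 24 h, against 21416, 19741 and 26846 at 0 h, and no 24 h library came near the 0 h libraries.

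Of the glucose-6-phosphate/phosphate translocators that carry hexose phosphate into plastids, comp130161_c0 had 333, 238, 201 and 235 normalized counts at 24 h, against 1945, 2017 and 2658 at 0 h (log2 fold change -3.13 ± 0.19, adjusted p = 6.70e-11). A further such component, comp137243_c0, had 89.6, 73.7, 52.1 and 70.3 at 24 h, against 442, 492 and 536 at 0 h (log2 fold change -2.77 ± 0.14, adjusted p = 7.68e-12). Both carry code AT1G61800, were chosen after their values were seen, and were lower in every 24 h library. For starch breakdown, of 89 components in the table, 27 passed the filter on low values, 5 were higher, 15 lower and 7 did not pass the test (median -0.37). Plastid glucan phosphorylase PHS1 was lower in 3 of its 4 components. Among them comp100868_c1 had 59.8, 36.2, 73.7 and 53.6 normalized counts at 24 h, against 412, 366 and 618 at 0 h (log2 fold change -3.09 ± 0.22, adjusted p = 5.59e-10). The more abundant comp85598_c0 had 194, 147, 241 and 166 at 24 h, against 1285, 1087 and 1876 at 0 h (log2 fold change -2.93 ± 0.19, adjusted p = 1.87e-10). The fourth (comp131106_c0) was not called (0.15), and as these components share a code, how the counting divided reads among them is uncertain. Glucan water dikinase GWD1 (comp133891_c0, AT1G10760), which phosphorylates starch and so opens it to enzymes, averaged 1254 ± 215 at 24 h and 2848 ± 476 at 0 h (log2 fold change -1.19 ± 0.12, adjusted p = 8.17e-08). Disproportionating enzyme DPE2 (-1.28), debranching enzyme ISA3 (-1.10) and the phosphatase SEX4 (-1.07) were also lower. The inactive beta-amylase homolog BAM9 (comp132099_c0, AT5G18670) was higher, with 1446, 1009.9, 1064 and 1271 at 24 h, against 557, 595 and 408 at 0 h (log2 fold change 1.22 ± 0.16, adjusted p = 2.40e-06).

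Glycolysis and respiration moved down with smaller steps. Of 200 components in the table, 45 passed the filter on low values, 4 were higher, 27 lower and 14 did not pass the test, with a median log2 fold change of -0.50. An enolase component (comp85564_c0, AT2G36530) had the largest decrease, with 17.6, 10.8, 12.2 and 14.5 normalized counts at 24 h, against 59.1, 58.0 and 86.4 at 0 h (log2 fold change -2.35 ± 0.25, adjusted p = 1.86e-07). The most abundant member, glyceraldehyde-3-phosphate dehydrogenase (comp109423_c0, AT3G04120), had 3629, 3664, 3657 and 4064 at 24 h, against 5830.0, 6284 and 6082 at 0 h (log2 fold change -0.69 ± 0.08, adjusted p = 9.74e-07). Both enzymes were below their 0 h range in all 4 of the 24 h libraries. The members that were higher include GAPB (1.43) and PGK1 (0.66), which are plastid enzymes of carbon fixation in Arabidopsis. For GAPB (comp122056_c0) 24 h replicate 4 (20.08) lay below all 0 h libraries (20.9 to 29.8). For the citric acid cycle and respiratory chain, of 307 components in the table, 44 passed the filter on low values, 4 were higher, 24 lower and 16 did not pass the test (median -0.27). Malate dehydrogenase went both ways. In component comp131132_c0 (AT3G47520, the plastid form in Arabidopsis) the mean was 282 ± 13.2 at 24 h and 584 ± 39.3 at 0 h (log2 fold change -1.04 ± 0.09, adjusted p = 4.80e-09). In comp120048_c0 (AT2G22780, a peroxisomal form) it was 732 ± 60.3 at 24 h and 368 ± 41.3 at 0 h (log2 fold change 0.98 ± 0.11, adjusted p = 1.84e-07). Isocitrate dehydrogenase comp132531_c1 (AT4G35260) was lower, with a log2 fold change of -0.84.

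DNA replication genes formed the list with the largest share of called members among those with at least 20 tested. Of 212 components in the table, 45 passed the filter on low values, 4 were higher, 38 lower and 3 did not pass the test. The median log2 fold change was -1.44 (all components, -0.01), and 31 of the 38 lower members were at least 2-fold lower. TSO2 (comp127087_c0, AT3G27060), the small subunit of ribonucleotide reductase that supplies deoxynucleotides, had 90.8, 77.2, 37.3 and 84.8 normalized counts at 24 h, against 480.3, 492 and 326 at 0 h (log2 fold change -2.57 ± 0.18, adjusted p = 5.11e-10). The single-strand binding protein replication factor A 1 (comp107765_c0, AT5G61000) had 60.1, 41.5, 36.7 and 72.5 at 24 h, against 346, 359.6 and 206 at 0 h (log2 fold change -2.55 ± 0.18, adjusted p = 5.11e-10). For TSO2, 0 h replicate 3 was the 0 h library nearest to the 24 h libraries, which still did not reach it. The helicase subunits MCM3 (-1.88), MCM4 (-2.07) and MCM7 (-1.76), the sliding clamp PCNA2 (-1.86), the catalytic subunits of DNA polymerase alpha (POLA1, -1.61 and -1.60), delta (POLD1, -1.44) and epsilon (POLE1, -1.79) and thymidine kinase TK1A (-2.07) were lower, all on the log2 scale. MCM2, MCM5 and MCM6 had more than 1 component each: all MCM5 components were lower, and for MCM2 and MCM6 1 component was higher (0.56 and 0.72) while the others were lower (-1.29, -2.04 and -2.06). The call of the higher MCM2 component (comp137427_c0) was lost without 0 h replicate 1 or 2 or 24 h replicate 2 or 3 (0.37 to 0.52). The higher MCM6 component (comp97610_c0) had 70.9, 81.7, 88.2 and 73.6 at 24 h, against 47.8, 46.4 and 49.1 at 0 h. RFC1 (comp134093_c0, AT5G22010), the large subunit of the clamp loader, was called higher by a small margin (log2 fold change 0.18 ± 0.07, adjusted p = 0.045). This call was lost in most alternatives, among them without 0 h replicate 1, 2 or 3 and without 24 h replicate 3 or 4 (log2 fold change 0.14 to 0.21).

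Histones and mitotic genes were lower too, with exceptions. Of 97 components in the table, 20 passed the filter on low values, 3 were higher, 14 lower and 3 did not pass the test (median log2 fold change -0.93). A histone H2A component (comp93890_c0, AT1G51060) had 52.8, 28.9, 19.3 and 39.0 normalized counts at 24 h, against 284, 421 and 226 at 0 h (log2 fold change -3.11 ± 0.21, adjusted p = 2.97e-10). A histone H4 component (comp91082_c0, AT5G59970) had 15.3, 13.6, 6.44 and 6.69 at 24 h, against 72.1, 128 and 72.7 at 0 h (log2 fold change -2.93 ± 0.28, adjusted p = 3.48e-08). These core histones package newly made DNA, and no 24 h library overlapped a 0 h library in either. Of the 16 histone components that passed the filter in both groups, which the H4 component did not, 10 were lower and 3 higher. Linker histones differed. The component comp112748_c0 (AT2G18050, hit histone H1/H5), a linker histone that responds to drought and abscisic acid in Arabidopsis, had 1752, 2414, 2598 and 1961 at 24 h, against 518, 532 and 886 at 0 h (log2 fold change 1.74 ± 0.18, adjusted p = 8.17e-08). Also higher was comp125798_c1 (AT2G30620, best hit the leafy spurge histone H1, log2 fold change 0.81 ± 0.08, adjusted p = 4.90e-08). Another, comp117848_c1 with the same code, was not called and its groups overlapped (log2 fold change -0.27 ± 0.11, adjusted p = 0.056), although it was called without 0 h replicate 3 or 24 h replicate 4 (-0.37 in both). For mitosis and cytokinesis, of 203 components in the table, 57 passed the filter on low values, 4 were higher, 38 lower and 15 did not pass the test (median -0.58). The microtubule-bundling regulator of cytokinesis comp122297_c0 (AT2G38720) had 5.67, 5.87, 7.72 and 7.81 at 24 h, against 28.4, 33.1 and 28.8 at 0 h (log2 fold change -2.15 ± 0.23, adjusted p = 1.49e-07). It passed the filter through 0 h alone, so its groups had to differ. The B-type cyclin-dependent kinases CDKB1;2 (-1.36) and CDKB2;2 (-1.41) and Aurora kinase AUR1 (-0.55) were lower, the last not without 0 h replicate 2 (-0.30, not called). Cyclin A comp135437_c0 (AT1G44110) was higher, with 100.99, 112, 119.6 and 95.9 at 24 h, against 38.1, 31.5 and 38.0 at 0 h (log2 fold change 1.55 ± 0.14, adjusted p = 2.40e-08), as was CYCB1;4 (comp135865_c1, log2 fold change 0.80 ± 0.08, adjusted p = 1.37e-07). The abundant CDC20.1 component comp135019_c0 had overlapping groups and a log2 fold change of 0.11 that was not called. Among DNA methylation genes, the maintenance methyltransferases CMT3 (comp126491_c0, AT1G69770) with 66.4, 49.2, 58.3 and 82.6 at 24 h, against 362, 355 and 227 at 0 h (log2 fold change -2.32 ± 0.16, adjusted p = 2.96e-10) and MET1 (-1.80) were lower.

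Transcripts of ribosomal proteins and of other genes of protein synthesis were more often lower than higher. Of 1153 components in the table, 97 passed the filter on low values, 6 were higher, 75 lower and 16 did not pass the test, with a median log2 fold change of -0.54 and none at least 2-fold higher. Summed ribosomal protein counts were 109580.1, 109164, 110329 and 130226 at 24 h, against 162395, 168744 and 176449.6 at 0 h. The 24 h libraries all lay below the 0 h libraries, and the sum was 0.679 times that of 0 h. The acidic protein P0 (comp112827_c1, AT3G09200), part of the stalk of the large subunit, had 4592, 4291, 4551 and 5559 normalized counts at 24 h, against 7846, 7931 and 8483 at 0 h (log2 fold change -0.77 ± 0.10, adjusted p = 2.04e-06). The protein P2 (comp102508_c0, AT3G44590), from the same stalk, had 72.6, 48.3, 41.8 and 108 at 24 h, against 147, 174 and 160.4 at 0 h (log2 fold change -1.31 ± 0.23, adjusted p = 6.87e-05). The largest increase among these proteins was that of comp110594_c0 (hit L7a, code AT3G02290, log2 fold change 0.96 ± 0.10, adjusted p = 1.89e-07). For ribosome assembly, 25 of 40 tested members were lower and 5 higher. Fibrillarin FIB2 (comp133281_c1, AT4G25630), which methylates ribosomal RNA, averaged 540.2 ± 38.6 at 24 h and 1124 ± 11.4 at 0 h (log2 fold change -1.06 ± 0.09, adjusted p = 3.83e-09). For translation factors the counts were 21 lower and 5 higher of 42.

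Proteasome subunits and chaperones followed the same direction. Of 193 components in the table, 29 passed the filter on low values, 1 were higher, 22 lower and 6 did not pass the test (median -0.47). The alpha-type subunit comp106596_c0 (AT1G47250) had 369, 342, 369 and 394 normalized counts at 24 h, against 762, 792 and 719 at 0 h (log2 fold change -1.04 ± 0.08, adjusted p = 1.31e-09). The most abundant member, the regulatory subunit rpn1 (comp132532_c0, AT2G20580), changed less, with 1120.1, 1107, 1243 and 1292 at 24 h, against 1456, 1467 and 1505 at 0 h (log2 fold change -0.31 ± 0.07, adjusted p = 0.0012). Neither subunit had a 24 h library within the 0 h range. For heat shock protein and chaperone genes, of 625 components in the table, 106 passed the filter on low values, 15 were higher, 49 lower and 42 did not pass the test (median -0.24). The most abundant, an HSP70-type gene by its code (comp129972_c0, AT5G02500, hit heat shock protein), averaged 15292 ± 983 at 24 h and 19711 ± 2096 at 0 h (log2 fold change -0.37 ± 0.10, adjusted p = 0.00539). The largest decrease among chaperones was that of comp135061_c0 (AT5G56010, log2 fold change -2.99 ± 0.45, adjusted p = 1.16e-05). A 17.9 kDa class I small heat shock protein (comp88907_c0, AT5G59720) went the other way, with 308, 366, 397 and 336 at 24 h, against 70.5, 94.5 and 159.7 at 0 h (log2 fold change 1.66 ± 0.19, adjusted p = 3.70e-07). Genes of F-box proteins and ubiquitin ligases, which select proteins for the proteasome, were more often higher than lower. Of 1274 components in the table, 314 passed the filter on low values, 86 were higher, 46 lower and 182 did not pass the test (median 0.09). Among them an F-box/LRR-repeat protein (comp128853_c0, AT1G21410) had 1179.6, 1387, 1549.8 and 1258 at 24 h, against 319.9, 303 and 458 at 0 h (log2 fold change 1.88 ± 0.14, adjusted p = 1.49e-09).

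The cycle that makes and recycles S-adenosylmethionine, the methyl donor for DNA, lignin and many other products, had the largest share of lower members of all lists with at least 10 tested. Of 166 components in the table, 14 passed the filter on low values, 0 were higher, 13 lower and 1 did not pass the test (median -1.07). Methionine synthase MS1 (comp133741_c0, AT5G17920) had 2696, 2101, 2161 and 2508 normalized counts at 24 h, against 7364, 7440.4 and 6266 at 0 h (log2 fold change -1.57 ± 0.12, adjusted p = 1.17e-09). S-adenosylmethionine synthetase MTO3 (comp103678_c0, AT3G17390) had 542, 361, 244 and 266 at 24 h, against 885, 1162 and 1146 at 0 h (log2 fold change -1.57 ± 0.19, adjusted p = 9.00e-07). The synthetase SAM2 (comp126238_c1, AT4G01850), the most abundant member over the 7 libraries, averaged 3888 ± 415 at 24 h and 6277 ± 509 at 0 h (log2 fold change -0.69 ± 0.10, adjusted p = 6.71e-06). All 3 were outside the 0 h range in every 24 h library. Adenosylhomocysteinase SAHH1, which clears the product of methylation, was lower in 3 components (-1.05, -1.37 and -1.30), and cystathionine gamma-synthase CGS1 in 1 (-1.05). The list summed to 15416, 12676, 13288 and 15021 at 24 h, against 28768, 30445 and 28833 at 0 h. All 12 members with a symbol were lower, with log2 fold changes of -1.57 to -0.51.

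Photosynthesis genes were higher at 24 h, with a wide spread between the 24 h libraries. For the light reactions, of 84 components in the table, 37 passed the filter on low values, 25 were higher, 0 lower and 12 did not pass the test (median log2 fold change 0.85). LHCB5 (comp114345_c1, AT4G10340), a minor antenna protein of photosystem II, had 529, 717, 738 and 309 normalized counts at 24 h, against 160.4, 156 and 146 at 0 h (log2 fold change 1.92 ± 0.25, adjusted p = 1.72e-06). The most abundant member, LHCB1.1 (comp137286_c0, AT1G29920) of the main antenna, had 2175, 2733, 3386 and 1534 at 24 h, against 936, 961 and 1029.8 at 0 h (log2 fold change 1.33 ± 0.20, adjusted p = 9.19e-06). In both, replicate 4 was the lowest 24 h library and still lay above all 0 h libraries. The antenna proteins LHCA2 (1.35), LHCA3 (1.65), LHCB3 (1.37) and LHCB2.2 (1.23), plastocyanin PETE2 (1.17) and the energy-dissipation protein PSBS (1.81) were higher, and PETC (0.31) and PSBP1 (0.30) were not called, although both were without 24 h replicate 4 (0.41 and 0.47). LHCA2, LHCB3, LHCB2.2 and PETE2 had overlapping groups through 24 h replicate 4, and LHCA2 (0.90, adjusted p = 0.0915) and LHCB3 (0.94, adjusted p = 0.075) were not called by limma. Summed light-reaction counts were 7682, 10005, 11334 and 4981 at 24 h, against 3994, 4124 and 4201 at 0 h. Replicate 4 of 24 h was thus closer to the 0 h libraries than to the other 24 h libraries, and its total (3750902 expected counts) was the smallest of the 24 h libraries. Its part in the spread was not tested.

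For the Calvin cycle, of 50 components in the table, 18 passed the filter on low values, 9 were higher, 1 lower and 8 did not pass the test (median 0.53). Rubisco activase RCA (comp104693_c1, AT2G39730), which frees rubisco from inhibitors, had 430.1, 608, 557 and 153 normalized counts at 24 h, against 107, 96.1 and 81.8 at 0 h (log2 fold change 2.24 ± 0.38, adjusted p = 4.50e-05). The plastid aldolase FBA2 (comp107375_c0) had 211, 273, 257 and 56.9 at 24 h, against 59.9, 46.4 and 41.2 at 0 h (log2 fold change 2.06 ± 0.37, adjusted p = 8.38e-05), and its groups overlapped through 24 h replicate 4. Summed over the list, the Calvin cycle had 2878, 3654, 3668 and 1612 at 24 h, against 1916, 1939 and 1923 at 0 h, so replicate 4 of 24 h lay below all 0 h libraries and the other 24 h libraries above them. The rubisco small subunit RBCS1A (comp102721_c0, AT1G67090) was the exception, with 476, 586, 581 and 495 at 24 h, against 762, 812 and 909 at 0 h (log2 fold change -0.63 ± 0.11, adjusted p = 4.19e-05). Activase and small subunit thus moved in opposite directions, each without overlap between the groups. Chlorophyll synthesis was divided, with 3 higher and 4 lower of 16 tested members (1 higher with DESeq2 or limma). The magnesium chelatase subunit CHLH (comp136389_c0, AT5G13630) averaged 202 ± 43.1 at 24 h and 109 ± 21.0 at 0 h (log2 fold change 0.90 ± 0.18, adjusted p = 3.26e-04). Porphobilinogen deaminase HEMC (comp117356_c0, AT5G08280) averaged 127 ± 8.44 at 24 h and 199 ± 9.08 at 0 h (log2 fold change -0.64 ± 0.11, adjusted p = 3.84e-05).

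Genes known to respond to sugar shortage were higher as a group. Of 57 components in the table, 14 passed the filter on low values, 8 were higher, 2 lower and 4 did not pass the test (median 0.77). The summed counts were 19267, 21668, 24368 and 21522 at 24 h, against 5851, 6472 and 8902 at 0 h, with DRM1 and ASN1 the largest contributors. The highest 0 h library was replicate 3, and the lowest 24 h library held more than 2 times its sum. DRM1 and ASN1 averaged 15079 and 3659 of a mean sum of 21706 at 24 h, and 4273 and 573 of 7075 at 0 h. The rise of the sum is therefore mainly that of DRM1 and ASN1. The trehalose-6-phosphate synthase family member TPS9 (comp124392_c0, AT1G23870) had 113, 119, 163 and 103 normalized counts at 24 h, against 28.4, 31.5 and 31.4 at 0 h (log2 fold change 2.04 ± 0.20, adjusted p = 3.97e-08). A further TPS9 component (1.25) and TPS10 (0.99) were higher too, whereas TPS8 was lower (-0.39). Also lower was another asparagine synthetase (comp115698_c1, AT5G10240), with 352, 324, 359.9 and 363 at 24 h, against 432, 466 and 467 at 0 h (log2 fold change -0.38 ± 0.08, adjusted p = 3.09e-04), opposite to ASN1. AKINBETA1 (comp109359_c0), a regulatory subunit of the energy-sensing kinase SnRK1, had a log2 fold change of 1.69. PRODH (-0.53), DIN9 (0.32) and BZIP53 (-0.16) were not called, DIN9 with a call without 0 h replicate 3 (0.59) and PRODH (comp124090_c0) with one, as lower, when no filter was used (-0.53, adjusted p = 0.0025).

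Breakdown of branched-chain amino acids, which feeds respiration when sugar is short, was more often higher than lower. Of 142 components in the table, 23 passed the filter on low values, 14 were higher, 4 lower and 5 did not pass the test (median 0.45). Of the 21 members that passed the filter in both groups, 12 were higher and 4 lower. The aminotransferase BCAT2 (comp138033_c0, AT1G10070) that starts the pathway had 28.9, 26.6, 20.6 and 17.9 normalized counts at 24 h, against 2.43, 1.66 and 3.92 at 0 h. It and comp109476_c3, also BCAT2, passed the filter through 24 h alone, so they had to differ. Its other 3 components were higher as well (0.45 to 1.77), but comp134207_c0 lost its call without 0 h replicate 1 or 24 h replicate 1 or 3 (0.36 to 0.42) and comp111285_c1 without 0 h replicate 3 (0.50). The keto acid dehydrogenase subunits E1A2 (1.07 and 1.12), E1B1 (1.23) and BCE2 (0.83), isovaleryl-CoA dehydrogenase IVD (0.61) and the methylcrotonyl-CoA carboxylase subunit MCCB (0.89) were higher as well, on the log2 scale. The partner subunit MCCA (comp111109_c0, AT1G03090, best hit named acetyl-CoA carboxylase) had 289.5, 289.6, 259 and 311 at 24 h, against 122, 121 and 109 at 0 h (log2 fold change 1.30 ± 0.14, adjusted p = 1.09e-07). Of later steps, hydroxymethylglutaryl-CoA lyase HML1 was lower in comp95816_c0 (-1.09) and comp104483_c0 (-0.74) and not called in comp133656_c1 (0.33). The call of comp104483_c0 was lost without 0 h replicate 1 or 2 or 24 h replicate 3 (-0.70 to -0.60), and comp133656_c1 was called without 24 h replicate 2 (0.40). The most abundant member (comp123581_c0), whose best hit is electron transfer flavoprotein-ubiquinone oxidoreductase but whose code is AT5G54770, was lower, with 414, 469, 565 and 528 at 24 h, against 893, 861 and 1164 at 0 h (log2 fold change -0.99 ± 0.13, adjusted p = 2.88e-06). The electron carrier ETFQO by its code was higher (0.40), and its partner ETFA was lower (-0.34, adjusted p = 0.0479) with a call lost in 5 of the 7 fits that left out a library (-0.34 to -0.27), namely without 0 h replicate 1 or 2 or 24 h replicate 1, 2 or 3. Among proteases, 24 were higher and 21 lower of 78, and a senescence-specific cysteine protease (comp110242_c1, AT5G45890) had 149.8, 252, 285 and 197 at 24 h, against 72.7, 104 and 55.0 at 0 h (log2 fold change 1.60 ± 0.29, adjusted p = 1.24e-04). NAC transcription factors, a family that includes regulators of senescence, were higher in 9 of 12 tested components and lower in 0 (median 0.76), and 3 of the 12 passed the filter through 24 h alone. The NAC component comp110265_c0 (AT5G61430, hit NAC domain-containing protein 100-like) had 120.4, 151, 141 and 135 at 24 h, against 30.8, 38.1 and 19.6 at 0 h (log2 fold change 2.31 ± 0.19, adjusted p = 4.49e-09). Of the 28 WRKY factors tested, 9 were higher and 0 lower, with 5 higher in a fit of only the 7 libraries.

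Genes of wall loosening and wall synthesis were more often lower than higher. Of 312 components in the table, 72 passed the filter on low values, 15 were higher, 33 lower and 24 did not pass the test (median -0.35). A component with a xyloglucan endotransglucosylase/hydrolase 9 hit (comp127998_c0, AT5G65730), an enzyme that cuts and rejoins xyloglucan chains, had 1368, 1622, 1267 and 1407 normalized counts at 24 h, against 314, 259 and 254 at 0 h (log2 fold change 2.36 ± 0.11, adjusted p = 7.34e-12). Alpha-expansin 3 by its hit (comp119080_c1, AT1G26770), a protein that loosens walls during growth, had 35.2, 23.0, 19.3 and 48.6 at 24 h, against 183, 181 and 107 at 0 h (log2 fold change -2.36 ± 0.22, adjusted p = 2.03e-08). A polygalacturonase (comp123743_c1, AT1G48100) had 37.5, 19.4, 19.3 and 24.5 at 24 h, against 167, 123 and 128 at 0 h (log2 fold change -2.48 ± 0.19, adjusted p = 2.08e-09). The groups did not overlap in any of these 3. The most abundant member, comp122983_c0 (AT5G25610, hit polygalacturonase), had overlapping groups and was not called (log2 fold change 0.20 ± 0.10, adjusted p = 0.104), although it was called without 0 h replicate 3 (0.30) and without 24 h replicate 1 (0.25). Cellulose synthesis was lower in 16 of 26 tested members and higher in 2, and tubulins and actins in 27 of 47 and 1. In the flavonoid pathway 16 of 43 were lower and 12 higher, and 13 and 3 of these changed at least 2-fold. Of its 17 members with a symbol 10 were lower, 2 higher and 5 not called. The lower ones include CHS (-2.22 and -1.91), CHI (-1.14), F3H (-1.11) and LDOX (-1.66). Summed counts of the list were 10969 to 15051 at 24 h and 20833 to 31739 at 0 h. Dihydroflavonol reductase DFR (comp90689_c0, AT5G42800, best hit cinnamoyl-CoA reductase), a step toward anthocyanins, had 978, 766, 541 and 769.8 at 24 h, against 2913, 2683 and 1599 at 0 h (log2 fold change -1.65 ± 0.17, adjusted p = 7.92e-08), and a further DFR component (comp123571_c0) was higher (0.71), a call lost without 0 h replicate 1 or 3 or 24 h replicate 2 or 3 (0.58 to 0.71).

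Hormone genes moved both ways in most lists. In ethylene synthesis and perception 5 were higher and 5 lower of 18 tested. Against the fall of ACO1, the abundant ACC oxidase component comp131480_c0 (ACO4) averaged 4403 ± 255 at 24 h and 2748 ± 406 at 0 h (log2 fold change 0.68 ± 0.10, adjusted p = 1.50e-05). Another ACO4 component (comp118063_c0) was not called (0.15). The receptor ERS1 (comp119030_c0, AT2G40940) averaged 2704 ± 540.0 at 24 h and 1434 ± 347 at 0 h (log2 fold change 0.91 ± 0.14, adjusted p = 2.37e-05). The receptor ETR2 (comp133343_c0, AT3G23150) changed in the opposite direction, with 535 ± 56.9 and 1075 ± 106 (log2 fold change -1.01 ± 0.09, adjusted p = 2.52e-08). The jasmonate synthesis enzymes AOC4 (log2 fold change -1.45 ± 0.10, adjusted p = 2.46e-10) and OPR3 (log2 fold change -1.09 ± 0.09, adjusted p = 5.42e-09) were lower within a list of 39 with 7 higher and 10 lower. For cytokinin 8 were higher and 1 lower of 15. The activating enzyme LOG5 (comp111122_c0, AT4G35190) had 179, 218, 197 and 187 at 24 h, against 89.1, 86.2 and 83.8 at 0 h (log2 fold change 1.18 ± 0.13, adjusted p = 2.77e-07). Another LOG5 component (comp112631_c1) was not called (0.01). The synthesis genes IPT3 (0.57) and IPT5 (1.14) and the degrading enzyme CKX5 (1.43) were higher, and the receptor AHK4 was lower (-0.64). For abscisic acid 12 were higher and 7 lower of 34. ABF3 (comp131394_c0, AT4G34000), an abscisic acid-responsive bZIP factor, had 629.5, 698, 903 and 691 at 24 h, against 288, 278 and 408 at 0 h (log2 fold change 1.15 ± 0.15, adjusted p = 2.65e-06). A further ABF3 component (comp120293_c0) was not called (0.58, adjusted p = 0.0595), although it was with TMM scaling (0.61) and without 24 h replicate 2 (0.70). The lower members of the list include HAI3 (-1.01) and CYP707A1 (-0.65). The flowering-time MADS-box gene SOC1 (comp117371_c1, AT2G45660) had 270.1, 355, 416 and 225 at 24 h, against 83.4, 123 and 154 at 0 h (log2 fold change 1.40 ± 0.22, adjusted p = 1.89e-05), and another MADS-box gene, SVP, was lower (-0.43). Among clock genes RVE8 (comp115633_c0, AT3G09600) averaged 206 ± 29.2 at 24 h and 98.8 ± 10.7 at 0 h (log2 fold change 1.06 ± 0.14, adjusted p = 3.50e-06). GRP7 (comp119782_c0, AT2G21660), an RNA-binding clock output, averaged 2238 ± 334 at 24 h and 4128 ± 281 at 0 h (log2 fold change -0.89 ± 0.13, adjusted p = 8.10e-06), while LHY (0.05) and TOC1 (-0.13) were not called.

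Several large families stayed at or below the share of called components in the whole table. Of 391 protein kinases tested, 73 were higher and 82 lower (39.6% called, against 50.1% of all components). RNA splicing had 21 higher and 14 lower of 73, defence proteins and lectins 37 and 18 of 150, MYB factors 4 and 3 of 23, and auxin genes 14 and 18 of 73. In all of them the median log2 fold change was between -0.05 and 0.15.

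**Figure D3:**
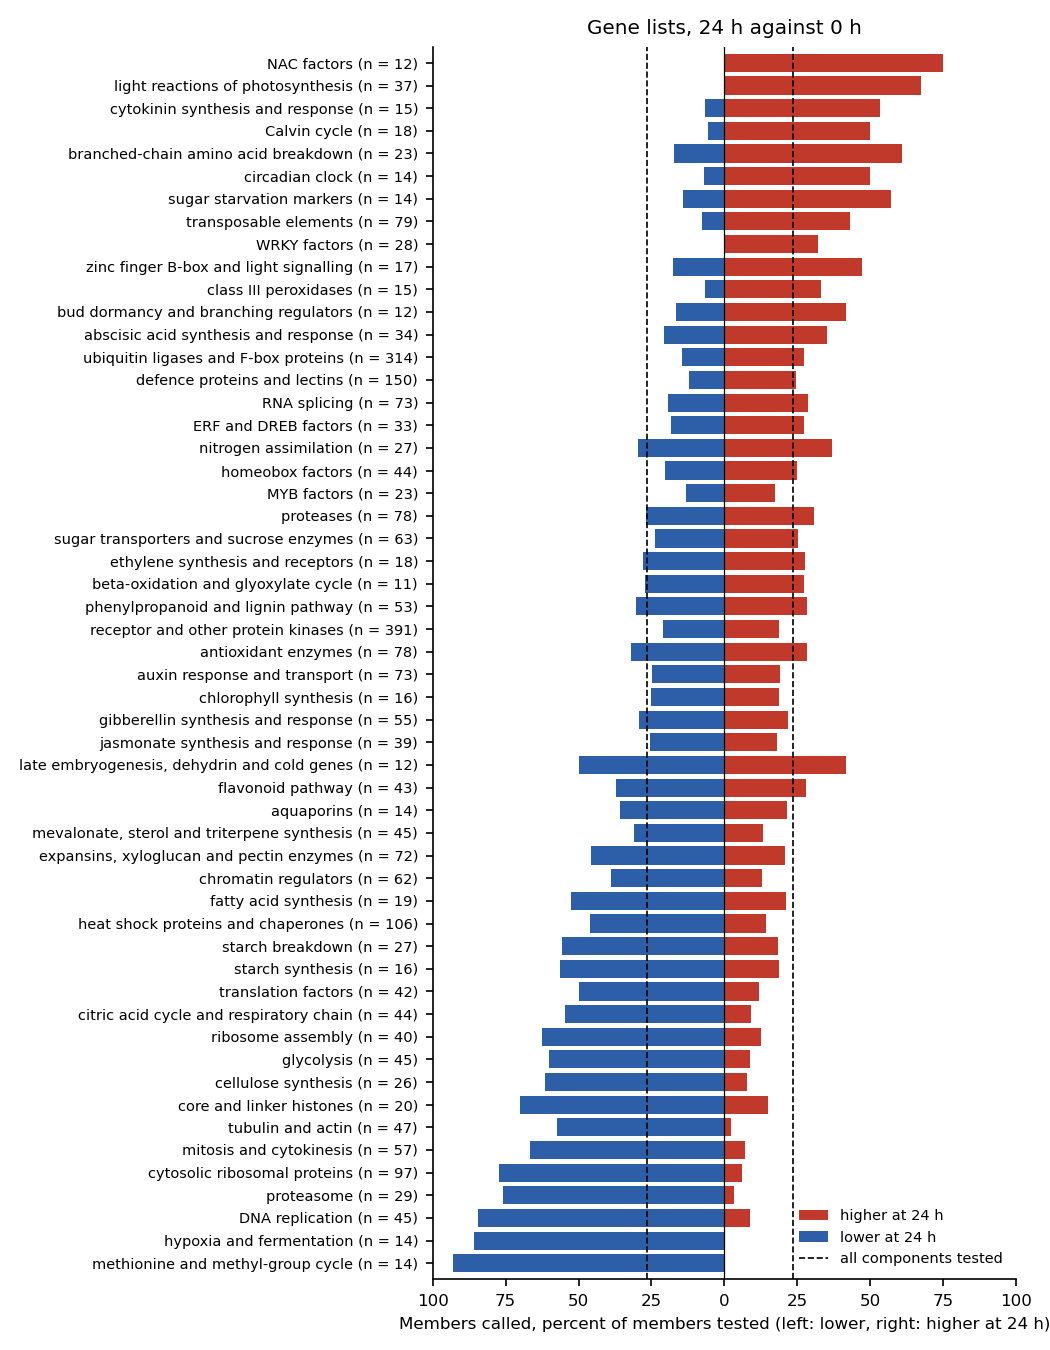
Percent of tested members called higher at 24 h (red, to the right) and lower (blue, to the left) for each list with at least 10 tested members, sorted by the difference, with dashed lines at the shares of all components (23.6% and 26.5%). The methionine cycle (13 of 14 lower), hypoxia (12 of 14 lower) and DNA replication (38 of 45 lower) stand at the bottom, and NAC factors (9 of 12 higher) and the light reactions (25 of 37 higher) at the top.

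Components without annotation leaned toward 24 h. Of 1745 tested components with neither an AGI code nor a protein hit, 847 (48.5%) were higher and 167 (9.57%) lower, with a median log2 fold change of 0.51. Of 16341 annotated components, 3428 (21.0%) were higher and 4618 (28.3%) lower, with a median of -0.05. The unannotated components were less abundant (median 28.3 normalized counts, against 97.9). Among those with a mean of at least 50 in the group where they were higher, 378 of 615 (61.5%) were higher and 92 lower. Chosen the same way, 22.8% of 11922 annotated components were higher and 32.8% lower. This choice admits components through the group where they are high, and the part of abundance was not tested. How many of the 1745 passed the filter through 24 h alone was not counted. Components whose leading contig had no open reading frame showed the same tilt, with 655 of 1388 higher and 164 lower. Best hits outside plants were few: 82 of 225 were higher and 27 lower (median 0.29). For transposable elements, of 2102 components in the table, 79 passed the filter on low values, 34 were higher, 6 lower and 39 did not pass the test (median 0.34). A component with a retroelement pol polyprotein hit (comp135819_c0, ATMG00750), the enzyme set that copies such elements, had 40.3, 42.5, 57.3 and 58.0 normalized counts at 24 h, against 15.4, 11.6 and 18.3 at 0 h (log2 fold change 1.61 ± 0.24, adjusted p = 8.92e-06). The most abundant member, a retrotransposon protein without an AGI code (comp138307_c1), had 723, 814, 796 and 765 at 24 h, against 526, 550.2 and 528 at 0 h (log2 fold change 0.54 ± 0.09, adjusted p = 6.45e-05). Both retroelement components were above their 0 h range in every 24 h library. In whole libraries, counts without a hit made up 3.85 to 4.09% at 24 h and 3.11 to 3.18% at 0 h, and the part of the higher share of non-plant hits in these values was not tested.

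**Figure D4:**
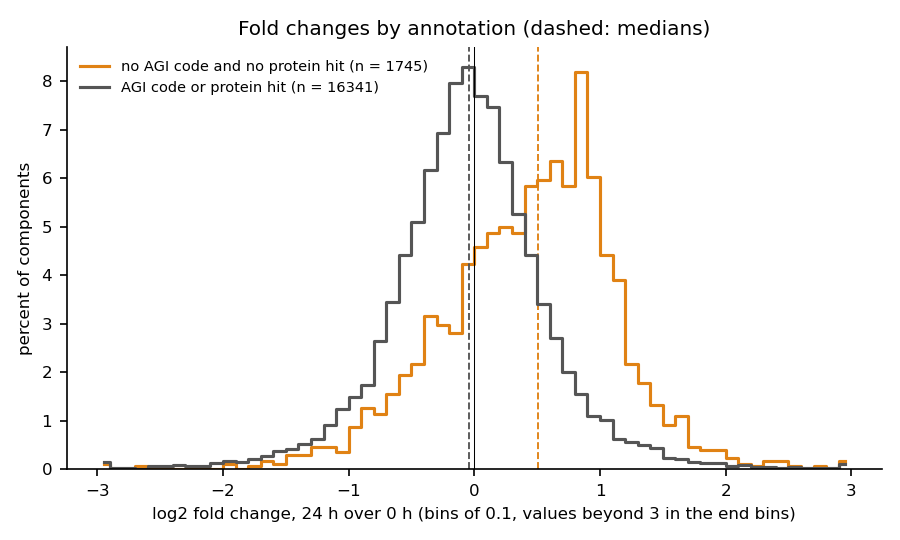
Distribution of the log2 fold change of 24 h over 0 h, in bins of 0.1, as percent of components, for 1745 components with neither an AGI code nor a protein hit (orange) and 16341 with one (gray). The dashed medians are 0.51 and -0.05, and the orange curve is shifted toward higher values at 24 h.

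The 6 h and 72 h libraries, set beside the same 0 h libraries, place some of these levels in time, as a description. The hypoxia list averaged 16859 summed normalized counts at 0 h, 18038 at 6 h, 5725 at 24 h and 9047 at 72 h. Starch synthesis averaged 22668, 8175, 8574 and 8342 at the same times, so its 6 h level already lay as low as its 24 h level. DNA replication averaged 7658, 5656, 3274 and 9127, with the 24 h libraries (2813 to 3700.5) below all others and the 72 h libraries (8398 to 9757) overlapping those of 0 h (6147 to 8489). The methionine cycle averaged 29349, 28058, 14100.5 and 27618, and its low level was seen at 24 h alone among the 4 times. Ribosomal proteins averaged 169196, 141851, 114825 and 182989. The sugar-starvation list averaged 7075, 16943, 21706 and 10706, ASN1 alone 573, 4041, 3659 and 2036, and LBD41 (comp123383_c1) 755, 329, 76.2 and 105. Light reactions averaged 4106, 6404, 8501 and 10246, and transposable elements 5455, 5873, 7373 and 5119.

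**Figure D5:**
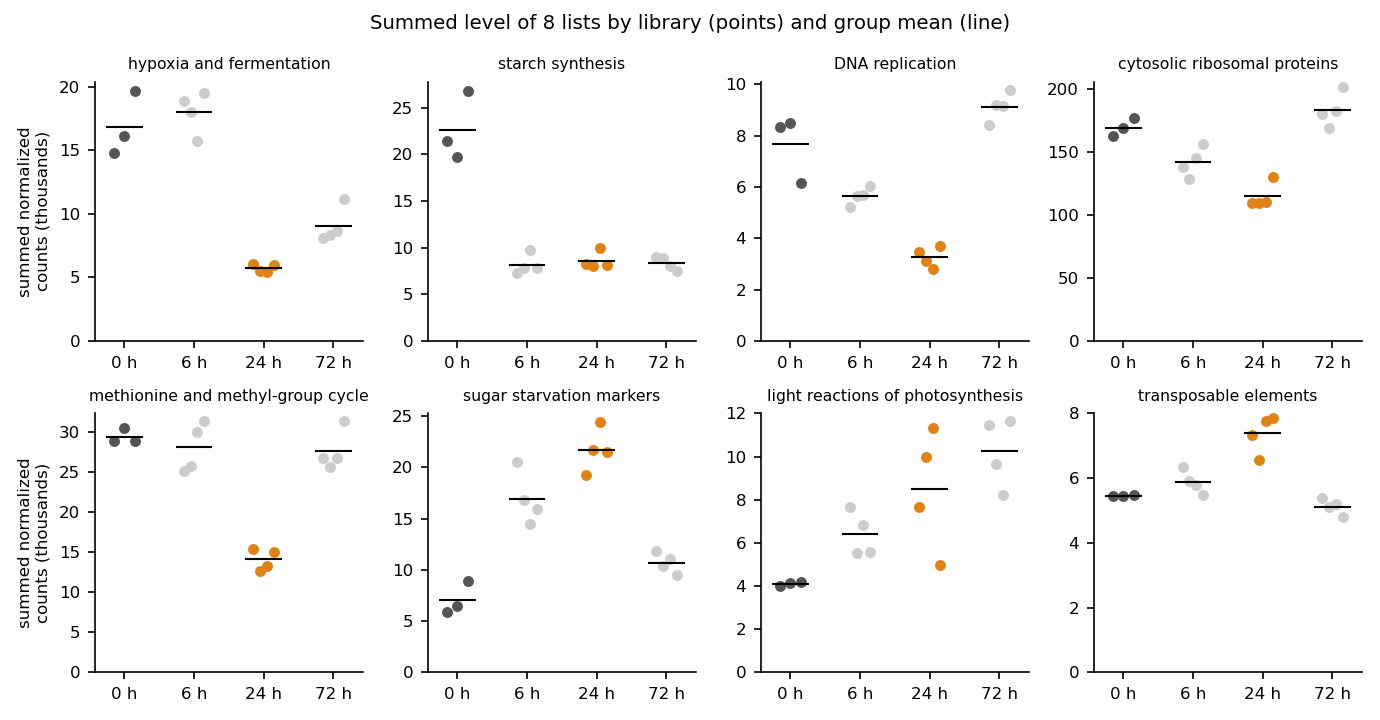
Summed normalized counts, divided by 1000, of 8 lists in each library (points) with the group mean (line) at the 4 sampling times from 0 h to 72 h, each panel with its own axis from 0. At 24 h (orange) hypoxia, starch synthesis, DNA replication, ribosomal protein and methionine cycle sums lie below every 0 h library, and sugar starvation and transposable element sums above.

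Near the edge of the filter, values were low and calls fragile. Just inside, comp117319_c0 (AT1G54200) had 10.8, 11.8, 7.72 and 6.69 at 24 h, against 16.2, 10.03 and 22.9 at 0 h (log2 fold change -0.86 ± 0.30, adjusted p = 0.019). Its groups overlapped, and the call was lost without 0 h replicate 3 (-0.52, adjusted p = 0.251). Also inside, comp103457_c0 (AT2G25625) had 10.8, 18.1, 13.5 and 10.04 at 24 h, against 4.05, 3.31 and 8.51 at 0 h (log2 fold change 1.20 ± 0.37, adjusted p = 0.01), a call lost without 0 h replicate 1 (0.97, adjusted p = 0.0682). Just outside lay a potassium channel KAT3 component (comp120689_c0), whose lowest 24 h library had 9.98 normalized counts, and a pentatricopeptide repeat component (comp127304_c0), whose lowest 0 h library had 9.96.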

How the data were processed

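Poly A RNA of crown buds was sequenced paired-end in a single lane from a directional library kit. The authors assembled contigs, annotated them by BLASTX and deposited expected counts per contig and per component from RSEM 1.2.11, which shares reads among similar contigs, counted 1 strand and gives estimated values (86.4% within 0.005 of a whole number). The counts of close copies are therefore uncertain, and whether counting this strand suits the kit was not tested, which bears on every count. Columns of the authors' own EBSeq (1.1.5) statistics were not used.

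Each library's component counts were scaled by the median-of-ratios method, with factors from all 15 libraries, into normalized counts. A component was kept above 10 normalized counts in every 24 h or every 0 h library and annotated by its contig with the most counts. Rounded counts of all 15 libraries, with 4 time points as groups, were tested with edgeR 4.0.16 (limma 3.58.1, R 4.3.3) by the quasi-likelihood test, two-sided, with Benjamini-Hochberg adjustment over 18086 components and a threshold of 0.05. SE is the absolute log2 fold change over the square root of F. The procedure was also run on simulated counts with few changed components and the size factors used here. A shift as broad as the one described was not simulated. Tables were made in Python 3.11.15 with pandas 2.3.3 and numpy 2.4.6. P-values measure the spread between pooled-bud libraries, which may be partly technical. Replicates 1 and 2 of 0 h differed by 1.38 times the variance of counting, and all other pairs by 3.66 to 6.31 times (Spearman correlation 0.978 to 0.985 over all pairs). Every library was counted as a separate replicate, and whether 0 h replicates 1 and 2 are near repeats was not tested.

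Members and lists were chosen with earlier results of these data known. Lists join components by AGI code or words of the best hit, overlap, and hold some odd matches (a protease inhibitor among starch enzymes, for example); summed counts cover every component of a list, tested or not. Named are the 10 largest annotated increases and decreases with a mean of at least 50, the 6 largest rises and falls in counts, in each list the 2 largest increases and decreases with a mean of at least 20 and the most abundant member, list members with a symbol, and the components nearest the filter; exceptions are stated. Alternatives were TMM scaling, size factors from 7 libraries, no filter, a filter on expected counts, only 7 libraries, DESeq2, limma on log2(normalized count + 1), a replicate block, a 1.5-fold limit, annotation by the contig listed first, only components with at least 50% of counts on the leading AGI code, an adjusted p under 0.01 and leaving out each library. No sequence of a contig was used here.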

Additional observations from a re-analysis of the deposited data

Results flagged for a closer look

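In 14 of 251 results looked at, 1 of the 4 libraries of 24 h stood apart from the other three by more than Dixon's 95% limit for 4 values; chance marks about 1 in 20. Replicate 3 did so for ACO1 (comp118906_c0, 7.72 normalized counts), histone H2AX (comp85027_c0, 22.5), MCM3 (comp136441_c1, 68.2), APL2 (comp127803_c0, 101.02), SBE2.1 (comp133490_c0, 2762), SHR (comp109575_c0, 45.1) and the sum of starch synthesis genes (9916), which includes APL2 and SBE2.1. Replicate 4 did so for glyceraldehyde-3-phosphate dehydrogenase (comp109423_c0, 4064), CKX5 (comp131032_c1, 72.5), PGK1 (comp134256_c0, 78.1), an ANT component (comp121774_c0, 92.6) and the sum of cytosolic ribosomal proteins (130226.5). Replicate 1 did so for a BCAT2 component (comp109476_c3, 17.0) and TPS10 (comp121034_c0, 228). SHR and the ANT component had overlapping groups and were not called, and in the other 12 results the groups did not overlap with the marked library included.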

How the results depend on the processing

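The count of 9060 called components (4275 higher, 4785 lower) moved by more than 1.5 times under 1 setting: a change of at least 1.5-fold left 5166 (2591 higher, 2575 lower). TMM scaling gave 9052 calls and 4546 higher, no filter on low values 8633 with a median log2 fold change of 0.25 over all, only the 7 libraries 8339, DESeq2 8148, limma 8377 and an adjusted p under 0.01 6786. Without 1 library the count was 7872 (without 0 h replicate 1) to 8899 (without 24 h replicate 4), and no shared call changed sign in any of these. The replicate block gave 9523 calls. Whether equal replicate numbers pair the libraries is uncertain. Same-numbered libraries deviated together with correlations of 0.158, 0.031 and 0.299. For 0 h replicates 1 and 3 the same number gave the highest correlation, while 0 h replicate 2 correlated best with 24 h replicate 1 (0.111). Among values of named components under all alternatives, 140 lost and 40 gained a call. None that was called in the test reported or in the alternative changed sign. Sign changes of components called in neither were not counted.

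Of the counts of list members, 31 of 732 moved by more than 1.5 times. They include WRKY factors higher at 24 h, 9 in the test reported and 5 in the fit of only the 7 libraries, and chlorophyll synthesis members higher at 24 h, 3 in the test reported and 1 with DESeq2 or limma. Depth limits components near 10 normalized counts. Both groups come from pooled buds with no record of plants, and libraries of 24 h had higher shares of counts without a hit and from outside plants, whose part in the calls was not tested.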

Other observations

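Lipid, carbon and nitrogen enzymes outside the pathways above moved too. In fatty acid synthesis 10 of 19 tested members were lower and 4 higher at 24 h. A component with a biotin carboxyl carrier hit (comp102284_c0, AT3G56130) had 121, 106, 95.3 and 110.3 normalized counts at 24 h, against 314, 347 and 295 at 0 h (log2 fold change -1.55 ± 0.09, adjusted p = 5.15e-11). Whether it is a working part of acetyl-CoA carboxylase, which starts the pathway, was not tested. The biotin carboxylase subunit of that enzyme (comp108432_c0, AT5G35360) had 215, 191, 184 and 253 at 24 h, against 553, 597 and 456 at 0 h (log2 fold change -1.35 ± 0.12, adjusted p = 8.76e-09). No 24 h library of either lay within the 0 h range. Phosphoenolpyruvate carboxykinase PCK1 (comp115941_c1, AT4G37870), which turns organic acids toward sugar, was higher, with 1076, 1209.6, 1341 and 967 at 24 h, against 398, 373 and 562 at 0 h (log2 fold change 1.35 ± 0.12, adjusted p = 1.87e-08). Glutamate dehydrogenase (comp126181_c1, AT5G18170), which releases ammonium from glutamate, was lower, with 48.8, 52.8, 56.0 and 48.0 at 24 h, against 154, 154 and 151 at 0 h (log2 fold change -1.56 ± 0.14, adjusted p = 2.13e-08). In the nitrogen list, which also holds ASN1, 10 were higher and 8 lower of 27.

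Of 71 antioxidant components that passed the filter in both groups, 19 were higher and 24 lower. Among them a peroxiredoxin (comp113614_c0, AT3G52960), which reduces peroxides, had 205, 204, 194 and 248 normalized counts at 24 h, against 615, 580.1 and 590.3 at 0 h (log2 fold change -1.50 ± 0.10, adjusted p = 4.67e-10). An H-type thioredoxin (comp104864_c0, AT1G11530), which passed the filter through 24 h alone, had 47.1, 56.2, 38.6 and 40.2 at 24 h, against 0.81, 1.66 and 5.24 at 0 h. A late embryogenesis abundant protein (comp105245_c0, AT4G15910) averaged 4121 ± 339.8 at 24 h and 1992 ± 560.5 at 0 h (log2 fold change 1.04 ± 0.17, adjusted p = 2.66e-05). Vacuolar invertase (comp126517_c0, AT1G12240), which splits sucrose in the vacuole, averaged 60.4 ± 11.9 at 24 h and 166 ± 50.1 at 0 h (log2 fold change -1.43 ± 0.19, adjusted p = 1.92e-06). A gibberellin-regulated protein 4 component (comp107575_c1, AT5G15230) averaged 319.9 ± 92.3 at 24 h and 1208 ± 88.0 at 0 h (log2 fold change -1.93 ± 0.16, adjusted p = 6.43e-09). The gibberellin list went both ways, with 12 higher and 16 lower of 55 tested (50.9% called, against 50.1% of all components). Its receptors GID1A (0.91) and GID1B (1.37 and 1.49, on the log2 scale) were higher.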
